A study of Mus musculus with 6 samples.

Results

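TFIID is the complex that recognises the core promoter at the start of transcription by RNA polymerase II. It is built of TBP, the TATA-binding protein, and a set of TBP-associated factors, the TAFs. Many TAFs pair through a histone fold, a protein fold first known from the nucleosome. TAF9 pairs with TAF6 in this way, and TAF9B is a close paralog of TAF9 that can take the same place. TAF9, TAF9B, TAF10 and TAF12 are also subunits of SAGA, a coactivator that acetylates and deubiquitinates histones. The genes described are Taf9b, Taf9, Taf6, Taf5, Taf12, Taf10, Taf13, Taf1, Taf7 and Taf2, 10 of the 19057 genes named on the array. They were chosen by name, with their TAT-CRE against mock differences in these arrays already known, so those differences are given as a description. Their calls in the fit over all genes are counted below, and nothing is read from them.

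RNA was measured on Illumina bead arrays, which give a brightness per probe, in splenic follicular B cells of 3 C57BL/6 mice carrying floxed alleles of Yy1 (yy1 f/f). Yy1 encodes a zinc finger transcription factor. Floxed DNA is cut out by Cre recombinase, and TAT-CRE is Cre fused to a peptide through which cells take it up. The cells, selected by the surface receptor CD23, were divided for each spleen between TAT-CRE in OptiMEM and a mock treatment. Both portions were then cultured for 72 hours in RPMI with 20% FBS, lipopolysaccharide (LPS), IL4 and OPI, a stimulus under which mouse B cells switch their heavy chain class. There were 3 TAT-CRE arrays and 3 mock arrays, taken by replicate number as a pair from each mouse. The series addressed the part of Yy1 in class switching. Cells without the floxed alleles were not analysed here, so effects of the Cre protein and of losing Yy1 cannot be told apart.

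Between 39.9% and 44.5% of the probes on an array were above background, and the correlation of arrays over genes was at least 0.991 within TAT-CRE and at least 0.976 within mock. The median SD per gene was 0.14 among TAT-CRE arrays and 0.23 among mock arrays on the log2 scale. Precision is limited by having 3 arrays a group. Of 6 B cell marker genes, Cd79b, Ms4a1, Cd22, Ebf1 and Fcer2a, which encodes CD23, were above background on every array at their brightest probes. The other, Cr2, was above background on no array. The intensities of all 14 B cell marker probes summed to between 57171 and 61363 on TAT-CRE arrays and between 44093 and 60202 on mock arrays, and the part of this in the results was not tested. Of 7 T cell genes, Cd3d, Cd3e, Cd3g and Cd8a were above background on no array, Cd4 and Lat were tested near background with overlapping groups, and Cd28 was above it on 0 TAT-CRE and 2 mock arrays. All 3 NK cell genes and Alas2 of red cells were above background on no array, and Hba-a1 of red cells differed by 0.53 (limma adjusted p = 0.225). Of 7 monocyte and macrophage genes, Mpeg1 and Adgre1 were tested, and both were above background on all 6 arrays at their brightest probes. Mpeg1 read between 1613.6 and 2683.2 and Adgre1 between 186.8 and 277.3, and the groups of both overlapped. Lyz2 was above background on 1 TAT-CRE array and Csf1r on 1 array of each group, at their brightest probes. Cd14, Fcgr1 and Itgam were above background on no array. Yy1 read 153.2, 140.4 and 133.8 on the TAT-CRE arrays of mice 1, 2 and 3, against 455.0, 408.9 and 439.2 on the mock arrays. No TAT-CRE array had this probe above background, so Yy1 was lower in TAT-CRE cells by at least 2.49-fold in deposited intensity. The limma fit, on background-corrected values, gave a log2 difference of -2.80 (limma adjusted p = 6.42e-06). The size of that difference rests on TAT-CRE values below background. The sources used here do not place the probe relative to the floxed part.

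The promoters of the TFIID genes are shown first, because YY1 is known to bind a short sequence with the core ATGG, often just downstream of transcription start sites. RefSeq promoters on build GRCm38.p6 hold 250 bases before each annotated start and 50 bases from it on. They gave 11 promoters of 8 of the 10 genes, and no promoters of Taf2 and Taf7 were used. The motif AANATGG was searched on both strands, where its reverse complement is CCATNTT. It was found in promoters of Taf9b, Taf5 and Taf6 and in no promoter of Taf9, Taf12, Taf10, Taf13 or Taf1. Of all 32851 promoters in the same table, 16.1% held it. This share and those of the longer motif below count promoters, while the members are counted by gene. Shares by gene among tested genes are given further on, for the whole promoter only. The 3 genes shared more than the core, since each had the longer AAGATGGC, which contains AANATGG, on the strand of the gene within its first transcribed bases. AAGATGGC was picked after these sequences had been seen. It occurred on either strand in 2.75% of all promoters, and on the strand of the gene within the first 30 transcribed bases in 0.499%. The windows run from 40 bases before the start site to base 30 of the transcript, 5′ to 3′ on the strand of the gene, and capitals mark AAGATGGC. Those of Taf9b, Taf5 and Taf6 are shown for the match, and that of Taf9 as the paralog without one.
Taf9b: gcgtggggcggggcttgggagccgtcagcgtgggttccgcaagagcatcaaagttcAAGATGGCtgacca
Taf9: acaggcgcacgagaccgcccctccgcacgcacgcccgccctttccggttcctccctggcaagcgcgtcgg
Taf5: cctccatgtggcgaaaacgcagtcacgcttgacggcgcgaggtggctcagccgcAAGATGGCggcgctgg
Taf6: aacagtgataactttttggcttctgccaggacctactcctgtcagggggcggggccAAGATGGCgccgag

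The Taf9b window is chrX:106221129-106221198 on the minus strand and the Taf9 window chr13:100651303-100651372 on the plus strand. That of Taf5 is chr19:47067708-47067777 on the plus strand, and that of Taf6 is chr5:138187197-138187266 on the minus strand. Counted from 1 at the start site, AAGATGGC began at base 17 in Taf9b, at base 15 in Taf5 and at base 17 in Taf6. The Taf6 match lay at the inner of its 2 annotated starts, and the outer start had none. A second, inner start of Taf9b had the shorter motif on the strand of the gene, 221 bases before it, and on the other strand, 137 bases before it. A match of letters is a description and does not show that a protein binds there.

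**Figure D1:**
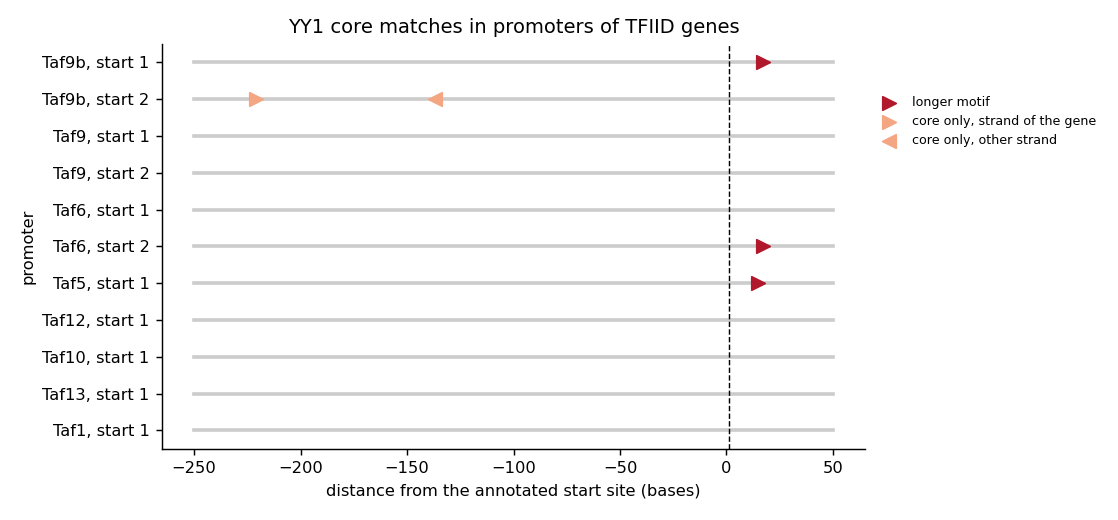
Each row is a RefSeq promoter of a TFIID gene, drawn from 250 bases before the annotated start (dashed line) to base 50 after it, with the x axis in bases from the start. Triangles mark the first base of each AANATGG match and point along its strand, dark where it lies within AAGATGGC. The dark triangles of Taf9b, Taf6 and Taf5 stand at bases 17, 17 and 15, and both Taf9 rows are empty.

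Taf9b was far lower in TAT-CRE cells, while its paralog Taf9 stayed within the spread between arrays. The brighter Taf9b probe read 253.1, 248.7 and 222.0 on the TAT-CRE arrays of mice 1, 2 and 3, against 2006.0, 1402.2 and 1779.0 on the mock arrays. Every TAT-CRE value lay below every mock value. After background correction the log2 difference of TAT-CRE minus mock was -3.58, -3.07 and -3.71 in mice 1, 2 and 3, with a mean of -3.45 ± 0.34 (SD, n = 3 mice; SE of the fit 0.18). This is 10.9-fold lower on the background-corrected scale and 7.17-fold lower on the deposited intensities. Without background correction the log2 difference was -2.83. Of the 9942 genes tested, Taf9b had the lowest log2 difference, which is among the values that led to the choice of these genes.

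The dimmer Taf9b probe gave the same direction in each mouse. It read 190.4, 149.3 and 169.6 on the TAT-CRE arrays, against 622.6, 626.2 and 646.3 on the mock arrays, and the groups did not overlap. The log2 differences were -2.44, -3.24 and -2.85 (mean -2.84 ± 0.40, SD). Only the TAT-CRE array of mouse 1 had this probe above background, which is 1 of 3, so its size is less certain than that of the brighter probe. Against the background level the fall was at least 3.52-fold in deposited intensity. The arrays measure RNA of whole cell samples, so fewer cells with Taf9b RNA and less of it in each cell cannot be told apart.

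Taf9 was read by 3 probes, each above background on all 6 arrays. The brightest read 2342.1, 2023.6 and 2209.1 on the TAT-CRE arrays, against 2286.0, 1987.5 and 2017.3 on the mock arrays. The groups overlapped, and the log2 differences of 0.04, 0.03 and 0.14 in mice 1, 2 and 3 averaged 0.07 ± 0.06 (SD). The second probe read 2084.3, 1995.3 and 2392.5 on TAT-CRE arrays and 1993.5, 1607.1 and 2088.5 on mock arrays, a mean log2 difference of 0.20 ± 0.13. The third differed by 0.07, -0.35 and 0.20, with a mean of -0.03 ± 0.29. No Taf9 probe thus showed a shift of the size seen at either Taf9b probe in any mouse. With the brightest probe of each gene, the log2 difference of Taf9b minus that of Taf9 was -3.61, -3.10 and -3.84 in mice 1, 2 and 3 (mean -3.52 ± 0.38, SD). Levels of Taf9b and Taf9 were not set against each other, since different probes differ in brightness per transcript.

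**Figure D2:**
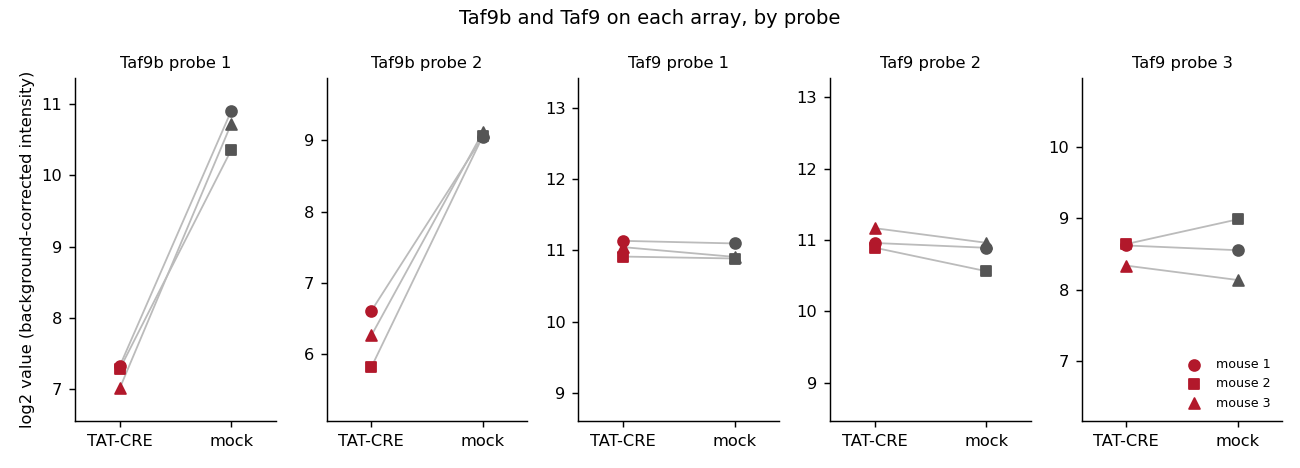
Log2 background-corrected intensity (y axis) of the 2 Taf9b probes and 3 Taf9 probes on each array, with TAT-CRE (red) left of mock (grey), symbols for mice and lines joining the arrays of a mouse. All panels span the same number of log2 units but start at different levels. Both Taf9b probes are lower on every TAT-CRE array, with mean differences of -3.45 and -2.84, and the Taf9 lines are nearly level.

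The neighbours of the paralogs on their chromosomes, taken as the nearest genes by start coordinate, were also examined. On chromosome X, Taf9b lies between Pgk1, a glycolytic kinase gene, and Fnd3c2. Pgk1 read 8548.4, 8385.6 and 8498.6 on TAT-CRE arrays and 13423.0, 14104.5 and 13563.4 on mock arrays at its brightest probe, and its log2 value fell by 0.70 (SE 0.15, limma adjusted p = 0.00830). That call was lost without both arrays of mouse 2 or of mouse 3 (limma adjusted p = 0.0533 and 0.103). The Fnd3c2 probe was above background on no array. On chromosome 13, the nearest to Taf9 were Rad17, a checkpoint gene, and Ak6, an adenylate kinase gene that shares the Taf9 locus. Rad17 differed by 0.16 (limma adjusted p = 0.566) and the Ak6 probe was above background on no array.

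The genes whose background-corrected values over the 6 arrays lay closest to those of Taf9b were Eci1, Yy1 itself and Nipsnap1. Likeness was the root mean square distance between log2 values centred on each gene's mean, over 6 arrays and among 9941 genes. The distances were 0.27 for Eci1, a fatty acid oxidation isomerase gene, 0.35 for Yy1 and 0.41 for Nipsnap1, which encodes a mitochondrial protein. The distance of Yy1 depends on the background correction, since its probe was above background on no TAT-CRE array, and without that correction Yy1 stood at rank 18. Eci1 read 315.2, 247.7 and 263.4 on TAT-CRE arrays, against 1826.9, 1979.2 and 1729.8 on mock arrays. Since the arrays fall into 2 groups, the likeness is mostly that of the group difference. The RefSeq promoter of Eci1 also held AAGATGGC, from base 18 of the transcript, and those of Yy1 and Nipsnap1 did not hold AANATGG. The Eci1 window is chr17:24426643-24426712 on the plus strand, shown because its match stands almost where that of Taf9b does.
Eci1: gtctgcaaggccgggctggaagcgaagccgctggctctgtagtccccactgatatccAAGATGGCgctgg

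Over all tested genes with a promoter in the table, AANATGG, the motif searched first, occurred in promoters of 25.7% of genes called lower, 15.2% of those called higher and 17.9% of those not called. AAGATGGC occurred in promoters of 83 of 653 genes called lower (12.7%), 33 of 651 called higher (5.07%) and 346 of 6813 not called (5.08%). A gene was called when its limma p, adjusted by Benjamini-Hochberg over all 9942 genes, was under 0.05. AAGATGGC was picked after the promoters of Taf9b, Taf5 and Taf6 had been seen. Taf9b and Eci1 are themselves among the 83, and Taf6 is among the 33. The shares are therefore a description, and they were not tested. Taf5 and Taf6 hold the same letters as Taf9b at nearly the same place, and their values follow.

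Closest to Taf9, the same measure gave Atp6ap2, Frmpd4 and Atf2, at distances of 0.02, 0.04 and 0.04. Their log2 differences were 0.07, 0.12 and 0.06. These are genes that hardly differed between the groups at the probe used. Without background correction Atp6ap2 was again at rank 1, and Frmpd4 and Atf2 were at ranks 38 and 9.

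Taf6 encodes the histone fold partner of TAF9 and TAF9B. Its brightest probe read 2462.4, 2143.9 and 2120.5 on TAT-CRE arrays, against 1448.1, 1374.6 and 1540.6 on mock arrays. The groups did not overlap, and the log2 differences were 0.81, 0.68 and 0.49 (mean 0.66 ± 0.16, SD). The other Taf6 probes did not share this difference. The second averaged 0.15 ± 0.40, with mouse 2 lower by 0.31, and the third averaged 0.01 ± 0.31, with mouse 3 lower by 0.31. Both were above background on all 6 arrays with overlapping groups. The direction of Taf6 RNA as a whole is therefore not settled, and the sources used here do not say which transcripts each probe covers. With the mean of all tested probes the Taf6 difference was 0.27.

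Taf5 encodes a WD40 repeat protein of the TFIID core. At its brightest probe it read 527.8, 578.1 and 567.3 on TAT-CRE arrays and 476.6, 631.1 and 685.8 on mock arrays. The groups overlapped, and the mean log2 difference was -0.10 ± 0.26 (SD), higher in mouse 1 and lower in mice 2 and 3. Its 3 dimmer probes averaged -0.28 ± 0.13, -0.50 ± 0.34 and 0.08 ± 0.58. The first of these had groups that did not overlap, and those of the others overlapped. The first and second of these were lower in each of the 3 mice. Of the 3 genes with AAGATGGC, Taf9b was lower at both of its probes. Taf5 overlapped at 3 of its 4 probes and was lower at the other, and Taf6 was higher at 1 of its 3 probes.

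Taf12 and Taf10 are, like Taf9 and Taf9b, shared with SAGA. TAF12 pairs with TAF4, and TAF10 with TAF3 or TAF8. The brightest Taf12 probe read 2115.2, 2243.2 and 1974.6 on TAT-CRE arrays, against 921.9, 1866.3 and 1659.0 on mock arrays. The groups did not overlap, but the low mock array of mouse 1 gave a log2 difference of 1.29 there, against 0.28 and 0.26 in mice 2 and 3. The other 3 probes averaged 0.40 ± 0.28, 0.42 ± 0.16 and 0.56 ± 0.46. All 4 Taf12 probes were thus higher in TAT-CRE cells in each of the 3 mice, by between 0.03 and 1.29. The groups overlapped at 2 of them. Without the mock array of mouse 1 the difference at the brightest probe was 0.27, and without that of mouse 2 it was 0.82. Taf10 read 3948.9, 3748.3 and 4604.9 on TAT-CRE arrays and 4408.4, 5307.1 and 3804.6 on mock arrays at its only probe. Its groups overlapped, with a mean log2 difference of -0.13 ± 0.40.

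TAF13 pairs with TAF11 in TFIID. The brighter Taf13 probe read 1654.4, 1799.4 and 1636.3 on TAT-CRE arrays, against 1514.1, 929.7 and 1470.8 on mock arrays. The groups did not overlap, and the log2 differences of 0.14, 1.03 and 0.16 show that most of the mean of 0.44 ± 0.51 came from the low mock array of mouse 2. Without that array the difference was 0.20. The dimmer Taf13 probe was above background on 1 of 6 arrays.

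The remaining subunits were read only near background. TAF1, the largest subunit and a scaffold with bromodomains, was read by a probe above background on 1 of 6 arrays, with intensities between 145.8 and 150.0 on TAT-CRE arrays and between 124.4 and 172.2 on mock arrays. The probe of Taf2, whose protein contacts DNA around the start site, was above background on no array, between 125.8 and 139.9 on TAT-CRE arrays and between 100.2 and 134.8 on mock arrays. Taf7 encodes a subunit that binds TAF1. Its brightest probe, above background on 3 of 6 arrays, read 186.8, 173.3 and 172.3 on TAT-CRE arrays and 172.9, 174.1 and 152.2 on mock arrays, and the groups overlapped. No level of Taf1 or Taf2 RNA, and hence no difference, can be read from these probes.

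In all, 8 of the 10 genes had a tested probe, and 19 of their 24 probes were tested. In the limma fit over all genes 1 of the 8 was called lower, Taf9b, and 1 higher, Taf6, where 8.01% of all 9942 genes were called lower and 7.95% higher. Groups did not overlap at the probe used for Taf9b, Taf6, Taf12 and Taf13, where this held for 34.9% of all genes tested. Nothing is read from these counts, or from the calls gained and lost below, since the same contrast led to the choice of the genes. With the mouse as a term in the model 2 of the 8 were called higher, Taf12 being added. The call of Taf6 was lost without the TAT-CRE array of mouse 1, without both arrays of any of the 3 mice and with no filter on dim probes. With the mean of all tested probes Taf12 was called higher and Taf6 was not. The median log2 difference of the 8 was 0.14, against 0.02 over all genes. Spread differed between the groups as well, with a median SD over the 8 of 0.12 among TAT-CRE arrays and 0.27 among mock arrays, against 0.14 and 0.23 over all genes.

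**Figure D3:**
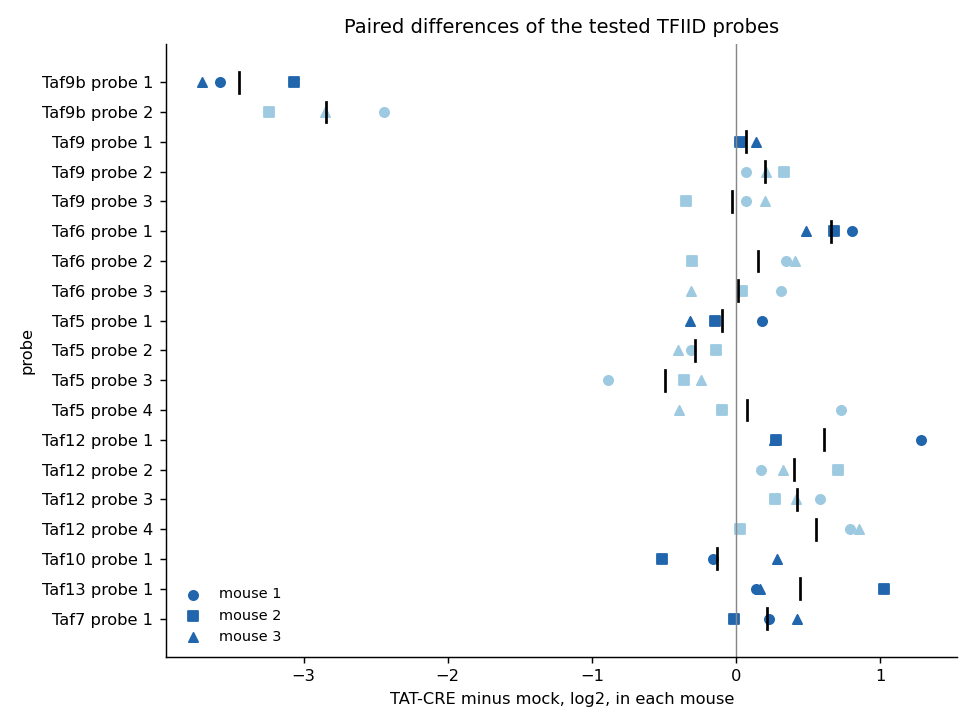
TAT-CRE minus mock on the log2 scale (x axis) in each mouse (symbols) for the 19 tested probes of 8 TFIID genes, listed from the brightest probe of each gene. Black bars are means over mice, and dark symbols mark the probe used in the fit over all genes. Both Taf9b probes lie between -3.71 and -2.44, and every other probe lies between -0.89 and 1.29.

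Of 7 other subunits of TFIID, 4 were tested, with log2 differences between -0.13 and -0.02. In limma 0 passed in either direction, also at an unadjusted p under 0.05, which 15.0% of all genes met as higher and 14.7% as lower. With 4 genes a count of 0 says little about the list. Tbp differed by -0.13 ± 0.16 (SE, limma adjusted p = 0.622), and its other 3 probes by -0.18, -0.29 and -0.41. Taf3 differed by -0.05 (limma adjusted p = 0.896), Taf8 by -0.12 (limma adjusted p = 0.680) and Taf11 by -0.02 (limma adjusted p = 0.938). Taf11, the partner gene of Taf13, read 467.0, 483.4 and 499.0 on TAT-CRE arrays, against 452.8, 521.2 and 497.8 on mock arrays, which overlap. Taf4, Taf4b and Taf7l had no tested probe.

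SAGA shares 4 of the TAFs described. Of 18 other SAGA genes 16 were tested, and 3 fell and none rose, where 8.01% of all genes were called lower and 7.95% higher. Usp22, the deubiquitinase of SAGA, fell by 0.80 (SE 0.17, limma adjusted p = 0.00910), and a second probe differed by -0.75. Supt20, a core subunit, fell by 0.60 (limma adjusted p = 0.0455), and Taf5l, the SAGA counterpart of Taf5, fell by 0.55 (limma adjusted p = 0.0452). The median over the 16 was -0.09. The Taf5l call was lost without any array other than mock 2 (limma adjusted p up to 0.190) and that of Supt20 without any other than mock 3 (up to 0.132). The Supt20 call was also lost with no background correction (-0.42, limma adjusted p = 0.0593) and with array weights (-0.41, limma adjusted p = 0.0980). That of Usp22 was lost without both arrays of mouse 1 or of mouse 3 (0.0599 and 0.113).

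Of 9 genes of ATAC, a related acetyltransferase complex, 6 were tested and none passed in limma, with 1 lower and none higher at an unadjusted p under 0.05, where the shares of all genes were 14.7% and 15.0%. None of 2 tested genes of TBP paralogs and regulators and none of 5 of the TBP complexes of RNA polymerases I and III passed in limma, and none had an unadjusted p under 0.05, at the same shares of all genes. Among 16 tested genes of the other general transcription factors, 1 rose and 1 fell. Over all genes 7.95% were called higher and 8.01% lower, which are the shares for every count of passing genes here. Gtf2a2, a subunit of TFIIA, which steadies TBP on DNA, rose by 0.90 (SE 0.19, limma adjusted p = 0.00737). It was above background on all 3 TAT-CRE arrays and on 1 of 3 mock arrays, so this size depends on the background correction, and without it the difference was 0.46 (limma adjusted p = 0.0250). Ercc2, a helicase gene of TFIIH, fell by 0.60 (limma adjusted p = 0.0277), while a second probe differed by 0.23 and did not pass (limma adjusted p over probes = 0.490). The Ercc2 call was lost without TAT-CRE 1, TAT-CRE 2, mock 1 or mock 3 (limma adjusted p between 0.0563 and 0.136) and with the mean of its probes (-0.18, limma adjusted p = 0.403). The Gtf2a2 call was lost without both arrays of mouse 3 (0.0788).

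Of 7 tested RNA polymerase II subunits 2 fell and none rose. Polr2j was not called, but it was higher by 0.49 with groups that did not overlap (limma adjusted p = 0.0542). Over the alternatives its limma adjusted p lay between 0.0220 and 0.193. Polr2d fell by 0.79 (limma adjusted p = 0.00574) and Polr2l by 0.78 (limma adjusted p = 0.00672), and both calls were lost without both arrays of mouse 3 (0.115 and 0.104). Of 27 tested Mediator genes 4 fell and none rose. Med16 read 477.6, 511.7 and 446.9 on TAT-CRE arrays, against 1132.1, 986.8 and 867.1 on mock arrays, and fell by 1.22 (SE 0.17, limma adjusted p = 0.000645). Med27 read 539.5, 524.2 and 634.0 on TAT-CRE arrays, against 1109.3, 1229.9 and 1149.6 on mock arrays, and fell by 1.18 (SE 0.16, limma adjusted p = 0.000602). Neither gene's groups overlapped. Med22 (-0.73, limma adjusted p = 0.0204) and Med11 (-0.53, limma adjusted p = 0.0321) were the others. Without TAT-CRE 1, TAT-CRE 3 or mock 2 the Med22 call was lost (0.0737, 0.102 and 0.0523), and that of Med11 without any array other than mock 2 (up to 0.127) and with the mean of its probes (0.0600). Over all 8 lists 83 genes were tested, of which 1 rose and 10 fell, against 7.95% of all genes called higher and 8.01% called lower. Without TAT-CRE 1, 2 or 3 the number that fell was 5, 6 and 6. The lowest of these 83 differences was that of Med16.

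**Figure D4:**
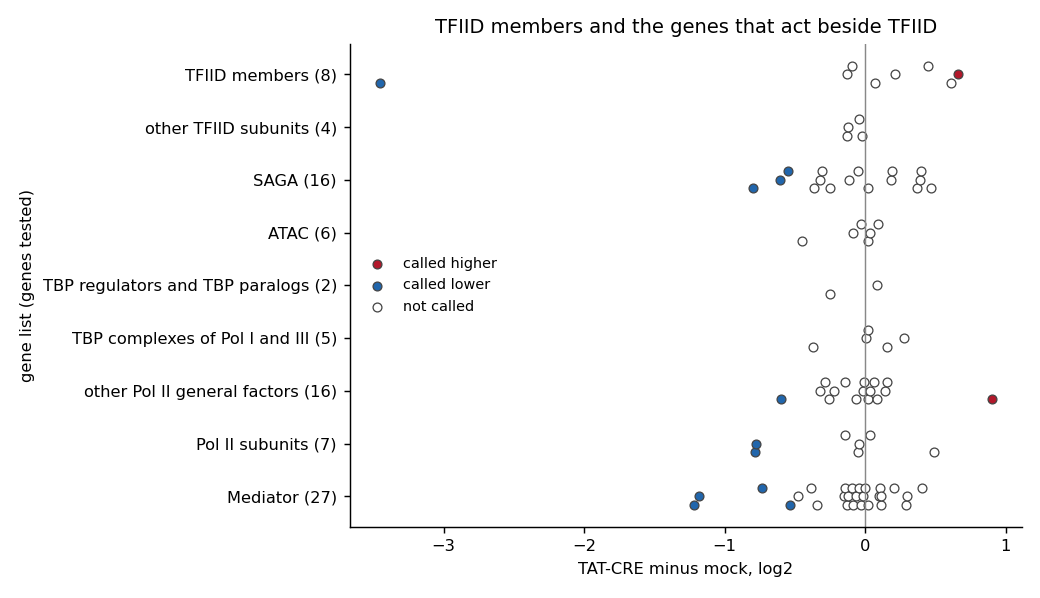
TAT-CRE minus mock on the log2 scale (x axis) for each tested gene, 1 point a gene at the probe used, by list (rows, with the number tested), set apart vertically only for legibility. Filled points passed the limma test over all genes (red higher, blue lower). The lowest point is Taf9b at -3.45, a value known when the genes were chosen, and the next lowest is Med16 at -1.22.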

How the data were processed

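The authors deposited a linear intensity for each of 45281 probes on 6 arrays. The submitters' processing notes name GenomeStudio 1.8. Sorted columns differ by at most 2.1 and array medians lie between 161.4 and 161.5, so the deposited intensities had been quantile normalized without background subtraction. A second table with 12 columns of signals and detection p-values was not used, because its column names match no sample.

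In limma 3.58.1 (R 4.3.3) the intensities were background corrected by normexp with an offset of 16, quantile normalized again and put on the log2 scale. The background threshold of each array was the 95th percentile of 1504 probes for olfactory or vomeronasal receptors. Probes with 1 gene name that exceeded it on at least 3 of 6 arrays were tested, 15701 in all, and each of 9942 genes took the value of its brightest tested probe on average. Groups were compared with lmFit and eBayes, two-sided, with Benjamini-Hochberg adjustment and a threshold of 0.05. The main fit had no term for the mouse, so its calls, p-values and SEs are unpaired, and the mouse entered only as an alternative. SE values are those of the fit, and other errors are SDs over mice. The procedure was tested on simulated data with independent arrays and the same spread in both groups. That test does not cover the unequal spread or the pairing of these arrays.

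Pairing comes from the replicate number in the labels, which was taken to mark a mouse because each spleen was divided between the treatments. Within a mouse, the deviations of both arrays from their group means correlated over genes at 0.104, 0.0349 and 0.0356. Members and lists were chosen with earlier results of these data known. Named were all member probes, the other TFIID subunits, chromosomal neighbours and the 3 genes most like each paralog. Also named were up to 4 called genes a list with the smallest p, and list genes called only in an alternative. The longer promoter motif and the windows of Taf5, Taf6, Taf9 and Eci1 were added after values were seen, as was the likeness without background correction. Genes of the lists without a named probe in these files were not analysed here. A bound written "at least" compares the mock mean of log2 deposited intensities with the lowest above-background intensity of each TAT-CRE array, or the probe's own where higher. Plots used matplotlib 3.10.9 (Python 3.11.15).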

Additional observations from a re-analysis of the deposited data

How the results depend on the processing

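Over 18 alternatives, the log2 difference of Taf9b stayed between -3.64 and -2.83 and that of Taf9 between 0.016 and 0.13. Without background correction Taf9b was at -2.83 and Taf9b minus Taf9 at -2.89, against -3.45 and -3.52. Leaving out an array or a mouse gave between -3.64 and -3.32 for Taf9b, between 0.016 and 0.13 for Taf9 and between -3.73 and -3.36 for Taf9b minus Taf9. Over all genes, 370 were called higher and 391 lower with no filter on dim probes, against 790 and 796, and leaving out an array or a mouse gave between 175 and 763 higher and between 185 and 814 lower. With no filter 0 TFIID members were called higher, and 0 to 1 with an array or mouse left out, against 1. With the replicate number as a block 2 members were called higher, while no called gene of the 8 lists lost its call. Of the lists, 2 genes were called higher with no background correction, an offset of 50, array weights or the mean of all tested probes, against 1, and between 0 and 2 with an array or mouse left out. With no filter 5 list genes were called lower, and between 2 and 10 with an array or mouse left out, against 10. Of the 11 called list genes and Yy1, Med16 and Med27 kept their call in all 18 alternatives and Yy1 in the 17 that tested it, since it is not above background on all 6 arrays, and none of the 12 changed sign. With no filter the calls of Taf5l, Supt20, Ercc2, Med11 and Med22 were lost. In turn, 6 list genes not called in the main fit were called in at least 1 alternative. These were Kat2b, Pole4, Gtf2a1, Gtf2b, Polr2j and Med30. With no filter more genes are adjusted over, and with arrays left out fewer samples enter. Cause of the other changes was not tested. Fold sizes near background, such as that of Taf9b, depend on the correction.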
